A study of Mus musculus with 8 samples.

Results

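The outer kinetochore KMN network is the assembly of the KNL1, MIS12 and NDC80 complexes that ties chromosomes to spindle microtubules. Its 10 subunit genes were taken by symbol and matched to the Ensembl mouse identifiers of the count table, which holds 56953 genes. The NDC80 complex gave Ndc80 (ENSMUSG00000024056), Nuf2 (ENSMUSG00000026683), Spc24 (ENSMUSG00000074476) and Spc25 (ENSMUSG00000005233). The MIS12 complex gave Dsn1 (ENSMUSG00000027635), Mis12 (ENSMUSG00000040599), Nsl1 (ENSMUSG00000062510) and Pmf1 (ENSMUSG00000028066). The KNL1 complex gave Knl1 (ENSMUSG00000027326) and Zwint (ENSMUSG00000019923). All 10 had counts in every library and passed the filter on low counts in every comparison.

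RNA was sequenced from transplanted tumours and from cultured cells of CT26, a mouse colorectal carcinoma cell line. The tumours had been treated with normal saline or with mLJZD, a drug whose abbreviation the labels do not expand. The cultures had been kept for 48 hours with serum at 10%, either control serum or serum that contained mLJZD. Each of the 4 groups had 2 libraries, 8 in all. The labels give neither the strain, age or sex of the host mice nor the dose of the drug. Whether a group's libraries came from separate animals or cultures is not stated, so each p-value measures the spread between the libraries at hand, which could be technical. The series title names nobiletin, CHEK1, histone H3 acetylation and CENPM, a centromere protein, so the kinetochore is close to the question of the study.

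Library totals ran from 16594912 to 29363861 counts. Values are given as CPM, the count scaled by the library total. Markers of colon epithelium were mostly low in this material. Krt20, a keratin of differentiated colon epithelium, stood between 141 and 276 CPM in the 8 libraries and Krt18 between 1.86 and 39.0. Epcam, an epithelial adhesion molecule, was at 0 in the 4 culture libraries and did not exceed 0.873 CPM in the tumours. Cdx2, an intestinal transcription factor, was at 0 in the 4 tumour libraries and did not exceed 0.47 CPM in the cultures. Vil1 did not exceed 0.1205 CPM, Krt8 3.28 CPM and Cdh1 4.75 CPM in any library.

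In mitosis the MIS12 complex sits on the inner kinetochore protein CENP-C and holds the NDC80 and KNL1 complexes in place. NDC80 is a long rod whose Ndc80 and Nuf2 heads bind the microtubule, while Spc24 and Spc25 form the end that docks on MIS12 and on CENP-T. KNL1 carries the repeats on which BUB3 and BUB1 gather when a kinetochore is unattached, and Zwint, its partner, links it to the RZZ complex and so to the spindle assembly checkpoint. In dividing cells the genes of this network are transcribed mainly late in the cell cycle, many of them through CHR and CCAAT elements bound by the DREAM and MMB complexes and NF-Y.

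Promoter sequences show what the members share outside their expression. RefSeq promoter windows of the build GRCm38.p6, from position -250 to +50 around the start, were found for 8 of the 10 members, and none for Spc24 or Nsl1. The windows were searched on both strands for CHR (TTTGAA or TTCGAA), for CCAAT and for E2F (TTCCCGC or TTCGCGC or TTGCCGC or TTGGCGC), which do not contain one another. CHR letters were present in 4 of the 8 windows, against 19.2% of 32851 promoters. CCAAT was present in 4 of 8, against 37.4%. An E2F match was present in 1 of 8, that of Dsn1, against 9.57%. The bases from -70 to +50 are shown for the members with a match there, with the matches in capitals. In these 120 bases CHR stood in 3 of 8 members (6.42% of all promoters), CCAAT in 4 of 8 (17.9%) and E2F in 0 of 8 (4.57%). A match describes letters only and shows no bound factor. The first set holds the members with a CHR match near the start, in which Ndc80 carries the reverse complement.
Ndc80: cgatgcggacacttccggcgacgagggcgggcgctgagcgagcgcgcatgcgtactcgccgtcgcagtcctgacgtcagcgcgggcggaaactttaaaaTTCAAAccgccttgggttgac
Spc25: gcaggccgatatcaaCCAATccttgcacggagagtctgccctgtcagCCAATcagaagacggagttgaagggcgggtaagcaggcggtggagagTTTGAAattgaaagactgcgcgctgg
Knl1: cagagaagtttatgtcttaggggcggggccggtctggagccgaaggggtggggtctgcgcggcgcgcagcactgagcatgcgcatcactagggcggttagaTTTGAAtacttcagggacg
The second set holds the members whose shown bases have CCAAT and no CHR.
Mis12: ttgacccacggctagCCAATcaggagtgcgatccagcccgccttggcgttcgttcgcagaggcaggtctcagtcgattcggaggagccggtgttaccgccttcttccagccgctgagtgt
Pmf1: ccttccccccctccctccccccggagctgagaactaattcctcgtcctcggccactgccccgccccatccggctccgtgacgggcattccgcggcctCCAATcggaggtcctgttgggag
Zwint: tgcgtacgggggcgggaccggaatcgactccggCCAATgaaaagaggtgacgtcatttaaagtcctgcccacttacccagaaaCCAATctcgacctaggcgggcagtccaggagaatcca
The whole windows lie at chr17:71526808-71527107 for Ndc80, chr2:69206164-69206463 for Spc25 and chr3:88410348-88410647 for Pmf1, all on the minus strand. Those on the plus strand lie at chr2:119046869-119047168 for Knl1, chr11:71019361-71019660 for Mis12 and chr10:72654596-72654895 for Zwint. Each sequence runs 5′ to 3′ on its gene's own strand. The CHR letters stood at +30 to +35 in Ndc80, +25 to +30 in Spc25 and +32 to +37 in Knl1. The fourth CHR match, in Pmf1, stood outside the shown bases at -135 to -130. Spc25 alone of these 8 held both CHR and CCAAT within the shown bases. Nuf2 had no match in its whole window and Dsn1 only the E2F letters at -204 to -198.

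Levels of the 10 genes can be compared with each other only per length, so CPM was divided by the length of the longest annotated transcript in kilobases. On this scale Zwint was the most abundant member in all 4 groups, at 54.9 ± 1.34 CPM per kb (SD, n = 2) in saline tumours, 53.1 ± 0.311 in mLJZD tumours, 71.5 ± 4.27 in control cultures and 68.6 ± 2.29 in mLJZD cultures. The lowest member was Nsl1 in both tumour groups, at 6.29 ± 0.339 CPM per kb under saline and 4.57 ± 0.711 under mLJZD. In cultures the lowest was Knl1, at 4.37 ± 0.382 CPM per kb under control serum and 9.44 ± 0.857 under mLJZD serum. The place of Knl1 rests on the transcript length used, and which transcript was expressed was not tested. Without division by length Knl1 stood above Dsn1, at 34.1 against 28.4 CPM under control serum and 73.65 against 42.3 under mLJZD serum. Under mLJZD serum the ranges of Knl1 and its neighbour Nsl1 (10.5 ± 1.29 CPM per kb) overlapped, so their order was not resolved there.

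In saline tumours the order from high to low was Zwint, Spc25 (37.9 CPM per kb), Pmf1 (23.1), Spc24 (20.7), Ndc80 (18.9), Mis12 (18.9), Nuf2 (18.3), Dsn1 (15.8), Knl1 (9.77) and Nsl1. Ndc80, Mis12 and Nuf2 overlapped their neighbours in this order, and the other neighbours were apart. In mLJZD tumours Zwint and Spc25 were again on top and Dsn1, Knl1 and Nsl1 at the bottom, with Ndc80, Mis12 and Pmf1 overlapping between 17.3 and 17.5 CPM per kb. Control cultures placed Pmf1 (40.6 CPM per kb) second, followed by Spc25 (37.1) and Spc24 (35.6), whose ranges overlapped. Mis12 (12.8) and Dsn1 (10.8) also overlapped there. Under mLJZD serum Spc25 (30.35 CPM per kb) was again second, Pmf1 (27.2) and Spc24 (25.9) overlapped, and so did Nuf2 (21.4) and Mis12 (19.9).

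Members differed in how far their level moved over the 4 groups. On the CPM scale the ratio of the highest to the lowest group mean was 2.34 for Pmf1, 2.30 for Nsl1, 2.23 for Knl1 and 2.22 for Spc24. It was 1.56 for Mis12, 1.53 for Nuf2, 1.49 for Dsn1, 1.35 for Zwint, 1.29 for Ndc80 and 1.25 for Spc25. The wide and the narrow members did not sort by complex, since the NDC80 complex holds Spc24 as well as Ndc80 and Spc25. Pmf1 and Spc24 were highest in control cultures and lowest in mLJZD tumours, whereas Knl1 was highest in saline tumours and lowest in control cultures.

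**Figure D1:**
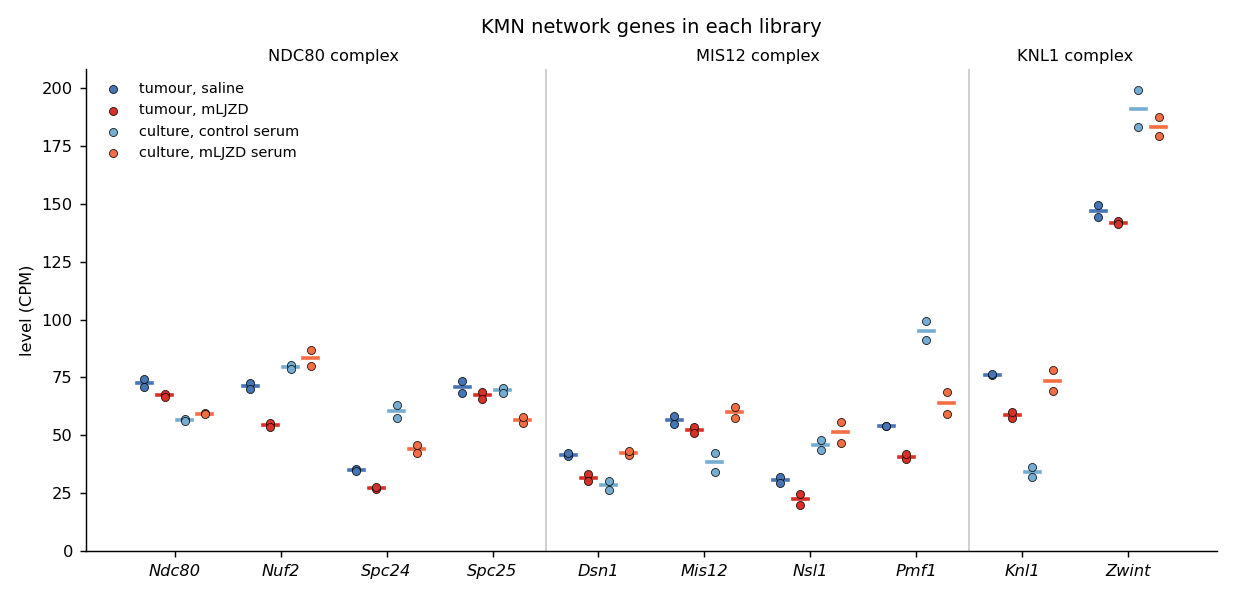
Level in CPM (vertical axis) of the 10 genes in each library (points, coloured by group), with the group mean as a bar and the complexes side by side. Zwint sits at 141 CPM or more in every library, and Knl1 is low only in the 2 control-serum cultures, at 32.0 and 36.2 CPM.

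In tumours, 6 of the 10 genes fell under mLJZD and none rose by edgeR's quasi-likelihood test at an adjusted p under 0.05. The 6 were Nuf2, Spc24, Dsn1, Nsl1, Pmf1 and Knl1, with log2 fold changes between -0.34 and -0.43, and they included members of all 3 complexes. Over the 15417 genes tested in this comparison, 16% were called lower and 15.4% higher. The median log2 fold change of the 10 members was -0.34, against 0.001 for all genes tested. With a smooth trend in transcript length and GC content removed, the count was again 6 lower and 0 higher, where 15.7% of all genes were lower and 18.9% higher. The material is bulk tissue, in which fewer cells of a type and less RNA per cell cannot be told apart. Leaving out 1 mLJZD library left 1 library in that group and lowered the count, and fewer genes were also called over the whole table. Without replicate 1, Nuf2, Pmf1 and Knl1 stayed called.

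Within the NDC80 complex, 2 of 4 genes fell. Nuf2, which with Ndc80 forms the microtubule-binding head, stood at 72.5 and 69.8 CPM in the saline tumours and at 55.1 and 53.6 in the mLJZD tumours. The groups were far apart, and the log2 fold change was -0.36 ± 0.055 (SE) at an edgeR adjusted p of 8.76e-05, a decrease of 21.8%. Its head partner Ndc80 stood at 71.1 and 74.5 CPM against 67.9 and 66.7, groups that did not overlap, with a log2 fold change of -0.080 ± 0.053 (SE) at an edgeR adjusted p of 0.284. Spc24, in the docking end of the rod, stood at 35.5 and 34.7 CPM against 26.7 and 27.6, a log2 fold change of -0.34 ± 0.079 (SE) at an edgeR adjusted p of 0.00304. Its partner Spc25 stood at 68.2 and 73.5 CPM against 68.9 and 65.5, with overlapping groups and a log2 fold change of -0.043 ± 0.058 (SE) at an edgeR adjusted p of 0.624. In each of the dimers of the rod, then, 1 partner fell and the other did not pass the test, and the difference between partners was not tested. Spc24 lost its call without mLJZD replicate 1 (edgeR adjusted p = 0.0754) and without replicate 2 (0.0632).

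Within the MIS12 complex, 3 of 4 genes fell. Dsn1, through which Aurora B controls the contact of the complex with CENP-C, stood at 41.0 and 42.3 CPM in saline tumours and at 33.2 and 30.1 in mLJZD tumours. Its log2 fold change was -0.36 ± 0.076 (SE) at an edgeR adjusted p of 0.00143. Nsl1, which pairs with Dsn1 and whose tail reaches the NDC80 complex, stood at 31.8 and 29.5 CPM against 19.9 and 24.8. The fall was the largest of the 10 at a log2 fold change of -0.43 ± 0.10 (SE) at an edgeR adjusted p of 0.00344, with the widest spread between the mLJZD libraries. Pmf1, the mouse NNF1 subunit, stood at 54.0 and 54.2 CPM against 39.7 and 41.7, a log2 fold change of -0.38 ± 0.062 (SE) at an edgeR adjusted p of 0.00015. Its dimer partner Mis12 stood at 58.5 and 54.8 CPM against 53.6 and 51.1. The Mis12 groups did not overlap, and the log2 fold change was -0.079 ± 0.061 (SE) at an edgeR adjusted p of 0.364. Without mLJZD replicate 1 the edgeR adjusted p was 0.0526 for Dsn1 and 0.137 for Nsl1, and without replicate 2 it was 0.0821 for Dsn1.

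Within the KNL1 complex, Knl1 fell and Zwint did not pass the test. Knl1, the checkpoint scaffold, stood at 76.1 and 76.3 CPM in saline tumours and at 57.3 and 60.2 in mLJZD tumours, groups far apart with a log2 fold change of -0.34 ± 0.053 (SE) at an edgeR adjusted p of 7.64e-05. Zwint, the link to the RZZ complex, stood at 144 and 149 CPM against 143 and 141. Its groups differed by little and the log2 fold change was -0.0165 ± 0.056 (SE) at an edgeR adjusted p of 0.86. The CHR match near the start was shared by Knl1, which fell, and by Ndc80 and Spc25, which did not pass the test. The CCAAT set likewise held Pmf1, which fell, and Mis12 and Zwint, which did not pass it.

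Other RNA moved between the same tumours. The summed level of 7 genes of cycling cells was 2078 to 2122 CPM in saline tumours and 1637 to 1658 in mLJZD tumours. Of these, 6 fell and 0 rose, where 16% of all genes were lower and 15.4% higher, and the median log2 fold change of the 7 was -0.24. Mki67, a nuclear protein of cycling cells, fell by 0.38 and Top2a, the mitotic topoisomerase, by 0.37 on the log2 scale. Skeletal muscle markers summed to 2397 to 2432 CPM under saline and 381 to 391 under mLJZD, and 6 of 6 fell. Markers of B and plasma cells summed to 26.0 to 27.0 CPM under saline and 322.5 to 356.5 under mLJZD (4 of 6 higher), neutrophil markers to 5.05 to 5.94 against 16.6 to 18.8 (5 of 6 higher, with 3 of 6 at 0 in each saline library), and erythroid markers to 18.2 to 22.2 against 43.8 to 47.1 (5 of 5 higher). Fibroblast markers summed to 1201 to 1207 CPM against 1588 to 1640 (3 of 5 higher), macrophage markers to 1229 to 1239 against 1027 to 1073 (1 of 6 higher and 2 lower) and T cell markers to 57.4 to 60.4 against 46.3 to 51.8 (1 of 6 lower). Endothelial markers summed to 196 to 198 CPM against 199.5 to 205 (0 of 5 called). The 7 markers of colon epithelium summed to 293.5 to 298.7 CPM under saline and 182.6 to 183.1 under mLJZD, mostly Krt20. Of the 4 tested, 3 were lower, with a median log2 fold change of -1.78. Krt18 went from 16.6 and 15.8 CPM to 1.86 and 2.23, and Krt20 from 276 and 271 to 175 and 176. The part of these shifts in the fall of the KMN genes was not tested. Muscle, B cell, T cell, neutrophil, erythroid and endothelial markers summed to at most 2.65 CPM in every culture library, macrophage markers to 8.29 to 10.6 and fibroblast markers to 284 to 406.

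In cultures the KMN genes moved in both directions under mLJZD serum: Dsn1, Mis12 and Knl1 rose, and Spc24, Spc25 and Pmf1 fell. Over the 13299 genes tested, 28.8% were higher and 26.6% lower, so 3 higher and 3 lower of 10 was close to the share among all genes. The median log2 fold change of the members was 0.012, against -0.013 for all genes. The count was also 6 in each of the 4 fits that left out 1 culture library. The log2 fold changes and their standard errors, with and without the trend in length and GC content, are plotted by gene for tumours and cultures.

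**Figure D2:**
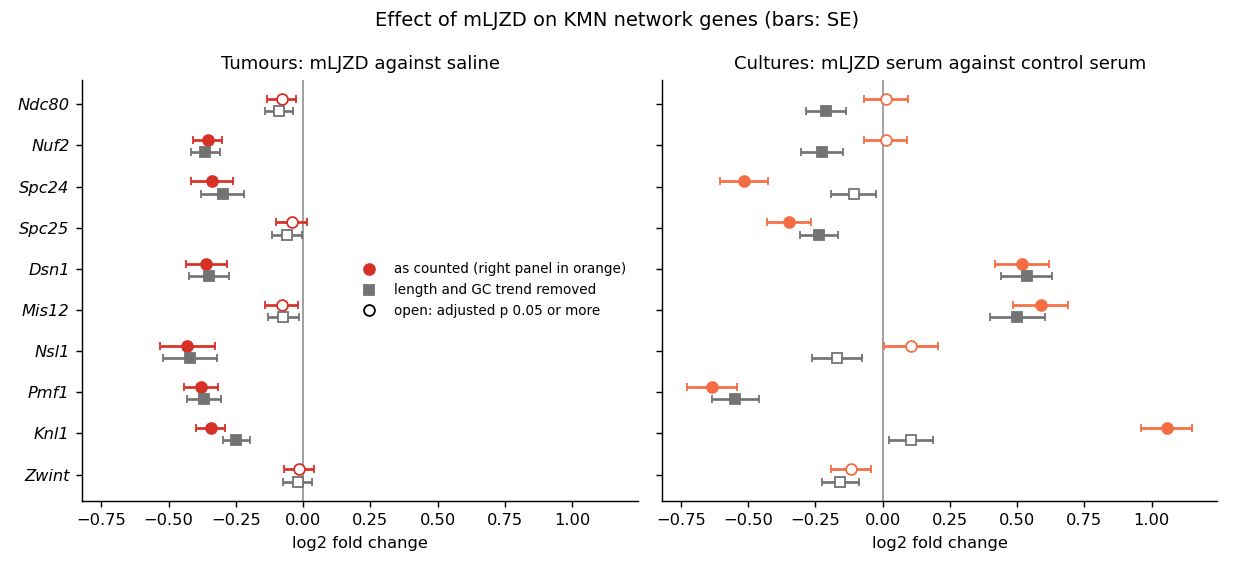
Log2 fold change (horizontal axis) of each KMN gene under mLJZD in tumours (left) and cultures (right), as counted (circles) and with the trend in transcript length and GC content removed (squares); bars are the SE and open symbols have an adjusted p of 0.05 or more. In tumours the 2 values of a gene lie close together, whereas in cultures Knl1 moves from 1.06 to 0.11.

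The NDC80 complex held 2 of the falling genes. Spc24 stood at 63.05 and 57.6 CPM under control serum and at 45.65 and 42.4 under mLJZD serum, a log2 fold change of -0.51 ± 0.090 (SE) at an edgeR adjusted p of 0.000218. Spc25 stood at 70.4 and 68.4 CPM against 55.4 and 58.1, a log2 fold change of -0.35 ± 0.081 (SE) at an edgeR adjusted p of 0.00212. Both genes of the docking end were thus lower, with no overlap between groups. Nuf2 stood at 80.3 and 78.5 CPM against 86.9 and 79.8, overlapping groups with a log2 fold change of 0.011 ± 0.081 (SE) at an edgeR adjusted p of 0.922. Ndc80 stood at 57.1 and 56.0 CPM against 59.5 and 59.2, with a log2 fold change of 0.013 ± 0.081 (SE) at an edgeR adjusted p of 0.909. Its groups did not overlap in CPM, which uses library totals, while the fit scales libraries by TMM, whose factors over all 8 libraries were 0.915 and 0.933 in control cultures and above 1 in mLJZD cultures.

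The MIS12 complex split. Mis12 stood at 34.15 and 42.5 CPM under control serum and at 62.4 and 57.35 under mLJZD serum, a log2 fold change of 0.59 ± 0.10 (SE) at an edgeR adjusted p of 0.000232. Dsn1 stood at 26.55 and 30.2 CPM against 41.3 and 43.25, a log2 fold change of 0.52 ± 0.10 (SE) at an edgeR adjusted p of 0.000492. Pmf1, the dimer partner of Mis12, moved the opposite way, from 99.25 and 91.05 CPM to 68.8 and 59.0, a log2 fold change of -0.63 ± 0.092 (SE) at an edgeR adjusted p of 4.17e-05. Nsl1, the dimer partner of Dsn1, stood at 43.7 and 47.8 CPM against 55.8 and 46.9. Its groups overlapped and its log2 fold change was 0.11 ± 0.099 (SE) at an edgeR adjusted p of 0.391. Mis12 shares 231 of its 3003 exon bases with Derl2 on the opposite strand, and whether counting used strand is not given in the sources used here. Derl2 stood at 60.7 and 56.05 CPM in control cultures and at 52.15 and 51.7 in mLJZD cultures. The part of the shared bases in the Mis12 counts was not tested.

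In the KNL1 complex, Knl1 showed the largest change of any member. It stood at 32.0 and 36.2 CPM under control serum and at 68.9 and 78.4 under mLJZD serum, a log2 fold change of 1.06 ± 0.095 (SE) at an edgeR adjusted p of 5.31e-07. Zwint stood at 199 and 183 CPM against 188 and 179, overlapping groups with a log2 fold change of -0.12 ± 0.075 (SE) at an edgeR adjusted p of 0.204. Under upper-quartile scaling Zwint passed the test as lower, at -0.23 (edgeR adjusted p = 0.0174).

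The culture effect followed transcript length across the transcriptome, and Knl1 has the longest transcript of the 10 at 7800 bases. Among protein-coding genes tested in cultures, the median log2 fold change was -0.76 for transcripts under 1000 bases, -0.48 for 1000 to 2000, -0.084 for 2000 to 4000, 0.41 for 4000 to 8000 and 1.00 over 8000. The corresponding medians in tumours ran only from 0.091 to -0.080. In saline tumours against control cultures, where neither group met the drug, they ran from -0.61 under 1000 bases to 1.23 over 8000. That comparison and the one in cultures share the control-serum libraries. Spc24, with 1696 bases, and Spc25, with 1869, lay on the falling side of that trend. Knl1, near the upper end of the 4000 to 8000 class, lay above the median of that class. Dsn1 (2636 bases) and Mis12 (3003) lay above the median of the 2000 to 4000 class and Pmf1 (2346) below it.

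**Figure D3:**
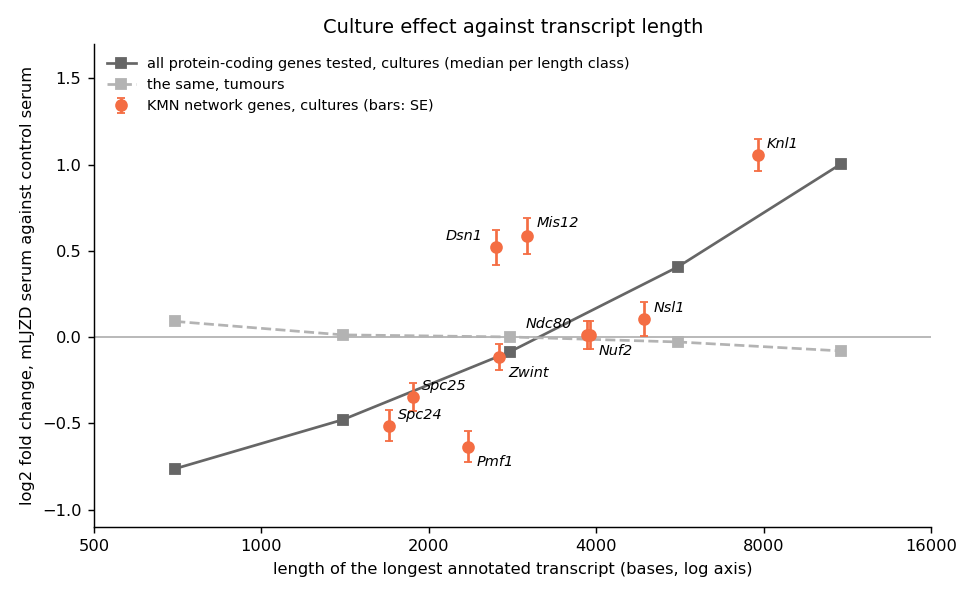
Log2 fold change in cultures (vertical axis, mLJZD serum against control serum) of the KMN genes (circles, bars are the SE) against transcript length in bases (log axis), with the median of all protein-coding genes tested per length class in cultures (solid line) and tumours (dashed line). Knl1 at 7800 bases, Dsn1 and Mis12 lie above the solid line. Pmf1, Nsl1, Ndc80, Nuf2 and Spc24 lie below it, and Spc25 and Zwint lie close to it.

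With the trend in length and GC content removed, 2 members were called higher and 4 lower in cultures, where 21.8% of all genes were higher and 18.4% lower. The step took out only part of the trend. Medians of protein-coding genes in cultures then ran from -0.33 under 1000 bases to 0.17 over 8000, with 0.089 in the class of Knl1. Dsn1 stayed higher at a log2 fold change of 0.54 (edgeR adjusted p = 0.000884) and Mis12 at 0.50 (edgeR adjusted p = 0.00242). Pmf1 stayed lower at -0.55 (edgeR adjusted p = 0.000491) and Spc25 at -0.24 (edgeR adjusted p = 0.02). Knl1 came to 0.11 (edgeR adjusted p = 0.336) and Spc24 to -0.11 (edgeR adjusted p = 0.336), so neither passed. Ndc80 was then lower at -0.21 (edgeR adjusted p = 0.0405) and Nuf2 at -0.23 (edgeR adjusted p = 0.0372). The Knl1 and Spc24 estimates kept their sign, with an SE of 0.081 and 0.083, but a direction was no longer resolved for either. The size of both changes thus depended on this step, and whether the trend arose in the cells or in the libraries was not tested. In tumours the same step left the 6 called members at log2 fold changes of -0.36 for Nuf2, -0.30 for Spc24, -0.35 for Dsn1, -0.42 for Nsl1, -0.37 for Pmf1 and -0.25 for Knl1.

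The effect of mLJZD differed between tumours and cultures for 7 of the 10 genes, by the interaction over all 8 libraries. The log2 effect in tumours minus that in cultures was lower than 0 for Knl1, Dsn1, Mis12, Nsl1 and Nuf2 and higher for Spc25 and Pmf1. The fit filters and scales all 8 libraries together. Its values therefore do not equal the tumour effect minus the culture effect given above, which came from separate fits. Over the 16090 genes tested, 20.5% were called lower and 23.8% higher, and the median difference was -0.15 in the members and 0.066 over all genes. The largest difference was that of Knl1, -1.32 ± 0.11 (SE) at an edgeR adjusted p of 8.6e-08, which fell in tumours and rose in cultures. Dsn1 had the next, -0.80 ± 0.12 (SE) at an edgeR adjusted p of 4.8e-05, with the same pair of directions. Mis12 followed at -0.58 ± 0.13 (SE) at an edgeR adjusted p of 0.00108, Nsl1 at -0.45 ± 0.15 (SE) at an edgeR adjusted p of 0.0204 and Nuf2 at -0.28 ± 0.10 (SE) at an edgeR adjusted p of 0.0344. On the other side stood Spc25 at 0.39 ± 0.10 (SE) at an edgeR adjusted p of 0.00552 and Pmf1 at 0.34 ± 0.12 (SE) at an edgeR adjusted p of 0.0282, lower under mLJZD in cultures to a greater degree than in tumours.

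The other members did not pass the interaction test, with a difference for Spc24 of 0.26 ± 0.11 (SE) at an edgeR adjusted p of 0.0746, for Zwint of 0.19 ± 0.092 (SE) at an edgeR adjusted p of 0.114 and for Ndc80 of -0.0082 ± 0.098 (SE) at an edgeR adjusted p of 0.9998. With the trend in length and GC content removed, 2 members were higher and 3 lower, where 21.1% of all genes were higher and 14.3% lower. Those were Spc25 (0.31) and Zwint (0.25) as higher and Dsn1 (-0.82), Mis12 (-0.51) and Knl1 (-0.38) as lower. Nuf2 (-0.030), Nsl1 (-0.20) and Pmf1 (0.25) then missed the threshold. Part of the length trend remained in the difference too, with medians from 0.36 under 1000 bases to -0.17 over 8000. Without saline replicate 1, Nuf2, Nsl1 and Pmf1 lost their calls, and fewer genes were also called over the whole table.

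The control groups show how the network differs between material that never met the drug, with growth, host cells and serum confounded. In saline tumours against control cultures, 4 members were higher and 5 lower, where 44.9% of the 15332 genes tested were higher and 35.7% lower, so this too was close to the share among all genes. Higher in tumours were Knl1 (log2 fold change 1.00, SE 0.072), Mis12 (0.40, SE 0.094), Dsn1 (0.39, SE 0.085) and Ndc80 (0.20, SE 0.062). Lower in tumours were Pmf1 (-0.98, SE 0.066), Spc24 (-0.94, SE 0.075), Nsl1 (-0.74, SE 0.080), Zwint (-0.54, SE 0.059) and Nuf2 (-0.32, SE 0.058). The highest edgeR adjusted p among these 9 was 0.0112, for Ndc80. Spc25 did not pass at -0.13 ± 0.064 (SE) at an edgeR adjusted p of 0.0795. With the trend removed, 2 were higher and 5 lower, where 42.9% of all genes were higher and 35.8% lower. Knl1 (0.064) and Ndc80 (0.099) then missed the threshold. The cultures and the controls comparison share the control-serum libraries. In CPM, Knl1, Mis12, Dsn1 and Ndc80 were lowest there and Pmf1, Spc24 and Zwint highest of the 4 groups.

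Subunits of 1 complex are needed together, so the balance of their RNAs was described as the log2 ratio of each gene to the mean log2 CPM of its complex, which does not depend on scaling between libraries. Spc24 stood below the mean of the NDC80 complex in all 4 groups, but not to the same degree. Its mean ratio was -0.77 in saline tumours, -0.90 in mLJZD tumours, -0.13 in control cultures and -0.43 in mLJZD cultures. Ndc80 stood at 0.28 and 0.41 in the tumour groups but at -0.22 in control cultures, below Spc24 there, and at 0.003 in mLJZD cultures. Nuf2 stood at 0.27 under control serum and 0.49 under mLJZD serum, and was lower in mLJZD than in saline tumours, at 0.096 against 0.25.

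The MIS12 complex changed most within cultures. Pmf1 stood at 1.03 in control cultures and 0.25 in mLJZD cultures, close to its 0.28 and 0.22 in saline and mLJZD tumours. Mis12 stood at -0.29 and 0.16 in the same cultures and at 0.35 and 0.58 in the tumours. Dsn1 stood at -0.72 under control serum, the lowest of its 4 group means, and at -0.34 under mLJZD serum. Nsl1 was near the mean of the complex in cultures (-0.027 and -0.068) and below it in tumours (-0.54 and -0.66). In the KNL1 complex, which has 2 members here and so mirrored ratios, Zwint stood at 0.47, 0.64, 1.24 and 0.66 in saline tumours, mLJZD tumours, control cultures and mLJZD cultures. The control-serum cultures thus held the group mean farthest from the other 3 for Pmf1, Dsn1, Mis12 and the mirrored Knl1 and Zwint. The same was so for Ndc80 and Spc24 of the NDC80 complex, but not for Nsl1, Nuf2 or Spc25. Ratios between genes of different length carry the length trend described above.

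**Figure D4:**
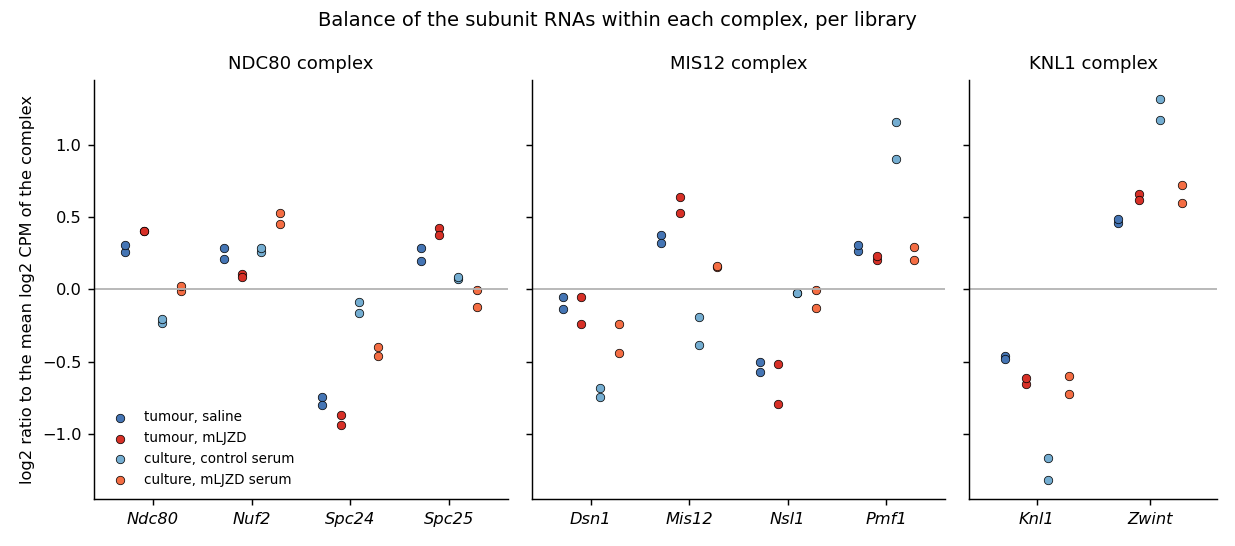
Log2 ratio of each gene to the mean log2 CPM of its complex (vertical axis) in each library (points, coloured by group), for the NDC80, MIS12 and KNL1 complexes. Control cultures (light blue) stand apart for Pmf1, Dsn1, Mis12, Ndc80, Spc24, Knl1 and Zwint, and Spc24 stands lowest in the tumours.

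The network works with a wider set of kinetochore genes, of which 26 were listed in 6 groups. In tumours 11 of the 26 fell and 1 rose, where 16% of all genes were lower and 15.4% higher, and their median log2 fold change was -0.16. The RZZ complex and corona, which bind next to Zwint on the unattached kinetochore, had 4 of 6 lower. Cenpf, a corona protein, fell most at -0.64 ± 0.057 (SE) at an edgeR adjusted p of 1.59e-07, and Zw10, of the RZZ complex, at -0.30 ± 0.070 (SE) at an edgeR adjusted p of 0.00297. In the spindle assembly checkpoint 2 of 7 fell, Mad2l1 at -0.29 and Bub1b at -0.20. Cenpt, the inner kinetochore dock of the NDC80 complex, fell at -0.30, and Plk1, a mitotic kinase, at -0.35. The chromosomal passenger complex, which corrects attachments, had Cdca8 higher at 0.26 and 3 of 4 lower, with Birc5 at -0.23. None of the 3 SKA genes was called; these couple NDC80 to microtubules.

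In cultures 8 of the 26 rose and 12 fell, where 28.8% of all genes were higher and 26.6% lower, so the rising count was close to the share among all genes. The median log2 fold change was -0.043. With the trend in length and GC content removed, 7 were higher and 8 lower, where 21.8% of all genes were higher and 18.4% lower. The RZZ complex and corona had 5 of 6 higher and 0 lower, led by Kntc1 at 1.20 ± 0.077 (SE) at an edgeR adjusted p of 2.93e-08 and the kinesin Cenpe at 1.11 ± 0.077 (SE) at an edgeR adjusted p of 5.03e-08. Kntc1, the ROD subunit of RZZ, stood at 53.4 and 55.1 CPM under control serum and at 131 and 129 under mLJZD serum. Removing the trend brought Kntc1 to 0.48 and Cenpe to 0.28, both still called. Cenpf, higher at 1.005 as counted, came to -0.021 (edgeR adjusted p = 0.831), so that 4 of 6 were then higher. The checkpoint genes split, with 3 of 7 higher and 3 lower, and 2 in each direction with the trend removed. BUB1 and BUB3 bind each other on KNL1, and Bub1 rose at 0.47 while Bub3 fell at -0.55 (0.28 and -0.73 with the trend removed). The docks Cenpw (-0.67) and Cenpt (-0.50) fell, as did Ska1 (-0.34) and Ska2 (-0.28), Birc5 (-0.49) and Cdca8 (-0.44). Plk1 (-0.51) and Mad2l1bp (-0.44), a factor of checkpoint silencing, also fell, and with the trend removed they came to -0.050 and 0.013 and were no longer called.

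**Figure D5:**
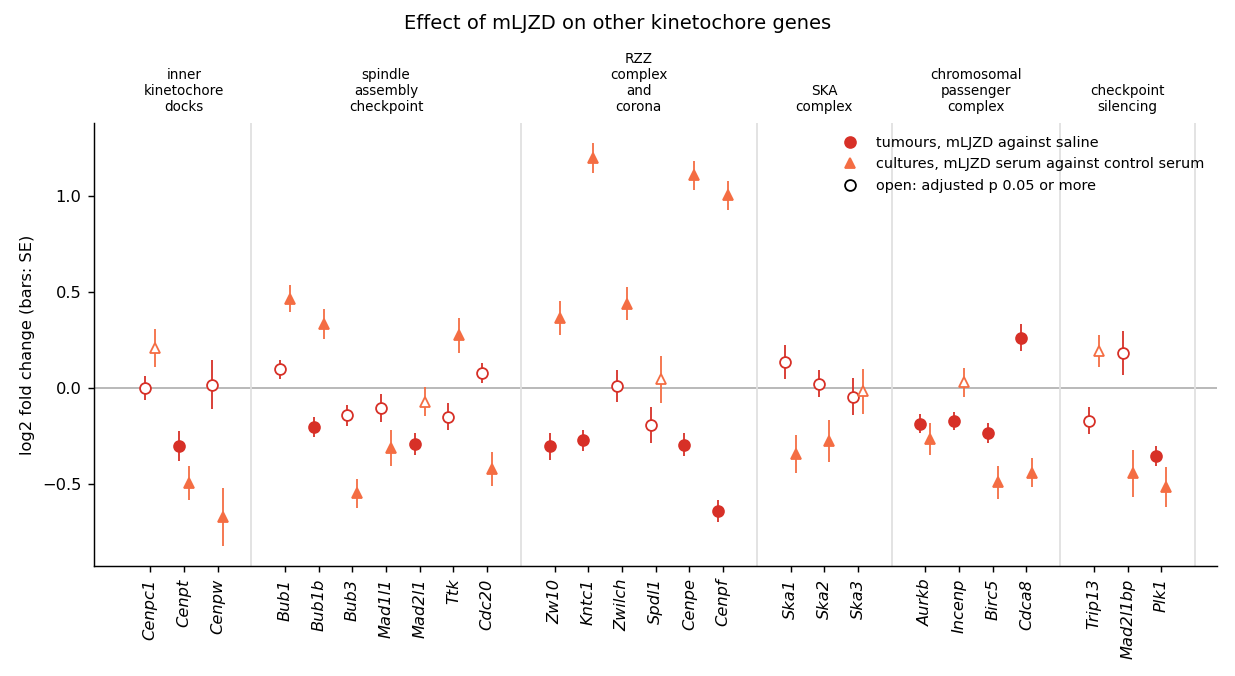
Log2 fold change under mLJZD (vertical axis, bars are the SE) of 26 other kinetochore genes in tumours (circles) and cultures (triangles), by group; open symbols have an adjusted p of 0.05 or more. In the RZZ complex and corona the tumour values lie at or below 0.013 and the culture values at or above 0.046.

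By the interaction, 8 of the 26 were higher in the tumour effect than in the culture effect and 8 lower, where 23.8% of all genes were higher and 20.5% lower. With the trend removed, 7 were higher and 5 lower, where 21.1% of all genes were higher and 14.3% lower. The corona and RZZ genes had 5 of 6 lower, with Cenpf at -1.56 and Kntc1 at -1.39. With the trend removed 4 of 6 were lower, Cenpf at -0.56 and Kntc1 at -0.72. Higher were Cdca8 (0.79) and Birc5 (0.34) of the passenger complex, Cenpw (0.77), Mad2l1bp (0.71), Cdc20 (0.59) and Bub3 (0.49) and the SKA genes Ska1 (0.565) and Ska2 (0.38). Of these, Mad2l1bp came to 0.28 (edgeR adjusted p = 0.167) and Cdc20 to 0.20 (edgeR adjusted p = 0.122) with the trend removed and lost their calls.

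Between the control groups 5 of the 26 were higher in tumours and 16 lower, with a median of -0.41, where 44.9% of all genes were higher and 35.7% lower. With the trend removed, 3 were higher and 17 lower, where 42.9% of all genes were higher and 35.8% lower. The higher ones included Cenpf (1.28), Cenpe (0.91) and the CENP-C gene Cenpc1 (0.72). The lower ones included Cenpw (-1.21), Trip13 (-1.19), Cdca8 (-1.09), Ska1 (-0.93), Birc5 (-0.91), Mad2l1bp (-0.80), Cdc20 (-0.70) and Bub1 (-0.70). All of these had an edgeR adjusted p under 0.05 as counted. With the trend removed Cenpf came to 0.24, still called, and Cenpe to 0.077 (edgeR adjusted p = 0.232), no longer called, while Cenpc1 stood at 0.68. Kntc1 changed sign, from 0.51 to -0.19 (edgeR adjusted p = 0.00849).

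The cycling-cell genes in cultures had 3 of 7 higher and 1 lower, where 28.8% of all genes were higher and 26.6% lower. Their median log2 fold change was 0.13. Mki67 stood at 135 and 136 CPM under control serum and at 332 and 364 under mLJZD serum, a log2 fold change of 1.31 that came to 0.36 with the trend removed. Top2a stood at 315 and 332 CPM against 593 and 572 and rose by 0.79, and by 0.31 with the trend removed. The other called genes of this list, named after their values were seen, were Prc1, higher at 0.70 (0.51 with the trend removed), and Cdk1, lower at -0.57 (-0.82). Ccna2, Ccnb1 and Tpx2 did not pass the test, and with the trend removed Tpx2 was called lower at -0.17. The summed level of the list was 1188 and 1211 CPM under control serum and 1733 and 1734 under mLJZD serum, a rise made up mostly by Mki67 and Top2a. The colon epithelium markers summed to 173 and 185.7 CPM under control serum and to 237.3 and 239.4 under mLJZD serum, with 1 of 4 tested called, Krt20 as higher. The part of these levels in the culture changes of the KMN genes was not tested.

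The genes whose profile over the 8 libraries was most like that of the NDC80 complex were sought by the root mean square distance on log2(CPM + 1), centred per gene, among 10683 genes whose mean reached 5 CPM. They were Emc2 (0.022), Ncbp2 (0.037), Arl6 (0.046), Med4 (0.046) and Tbc1d10b (0.048). The mean centred profile of the complex was narrow, from -0.22 in an mLJZD tumour to 0.19 in a control culture, so a small distance marks genes that also changed little. The complex was itself not a tight group on this scale. Nuf2 lay 0.14 from the profile that it contributed to, Spc25 0.18, Ndc80 0.24 and Spc24 0.30, and 642 to 3884 other genes were closer. Zwint, which was not used to build the profile, lay at 0.12, closer than any of the 4 genes of the complex, and Knl1 at 0.53 was the farthest member, with 7667 other genes closer.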

How the data were processed

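The authors deposited unnormalized counts of the 8 libraries by gene, in 1 table. Per the labels' protocols, kits from Vazyme were used to isolate the RNA and to build the libraries. Per the submitters' processing notes, the build was GRCm39 and the tools were HISAT2 2.2.1, featureCounts 2.0.3, SAMtools 1.14, FastQC 0.12.1 and Trim Galore. For the annotation release, the strand setting and multiply mapped reads, settings were not given in the sources used here.

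Symbols, transcript lengths and GC content came by identifier from GENCODE M21, which is on an earlier build, so no coordinates were taken from it; 52029 of 56953 identifiers were named, and the rest held 0.343% to 0.596% of a library's counts. The tests on counts used edgeR 4.0.16 (R 4.3.3; quasi-likelihood F test, two-sided, TMM, filterByExpr, p-values adjusted after Benjamini-Hochberg over every gene tested, threshold 0.05), with 4 libraries for tumours, cultures and controls and all 8 for the difference of effects. Each SE was taken as the absolute log2 fold change over the root of F. The trend was removed per library with natural splines of 6 degrees of freedom each in log2 length and GC content. This left part of it in cultures, in the difference and between the controls. In tumours the median log2 fold change of transcripts under 1000 bases went from 0.091 to -0.12. The fits were tested on simulated data. An exact permutation test of 2 against 2 libraries cannot give a two-sided p below 0.33, so p-values rest on the model across genes.

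The 10 members, the gene lists, the tests and the naming rule were chosen with earlier results of these data known. The rule names all members, the 2 called genes with the largest change per list of other kinetochore genes and comparison, Mki67 and Top2a, and the 5 genes nearest to the NDC80 profile. Alternatives were DESeq2 1.42.0, other scalings, no filter, all libraries in 1 fit, the trend removed, a replicate block, and each library left out. Whether replicate numbers pair the samples is not stated. The correlation of the differences between replicates 1 and 2 was -0.078 between the tumour groups and 0.016 between the culture groups. A value near 0 cannot settle this, since a small shared effect could be hidden by the spread of single genes. The 2 libraries of a group were not duplicates of each other in any group, with a chi-square per degree of freedom of 2.69 to 11.6. Pairs across groups were not checked.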

Additional observations from a re-analysis of the deposited data

Results flagged for a closer look

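The effect of mLJZD differed between tumours and cultures for 7 of the 10 KMN genes, by edgeR's interaction test over the 8 libraries, where 23.8% of all 16090 genes tested were called higher and 20.5% lower. Values are the log2 effect in tumours minus that in cultures in the fit of all 8 libraries, with the value after removal of the trend in length and GC content beside it. Knl1 stood at -1.32 (-0.38 with the trend removed), Dsn1 at -0.80 (-0.82) and Mis12 at -0.58 (-0.51). Nsl1 stood at -0.45 (-0.20) and Nuf2 at -0.28 (-0.030). Spc25 stood at 0.39 (0.31) and Pmf1 at 0.34 (0.25). With the trend removed, Knl1, Dsn1, Mis12 and Spc25 passed the test and Nsl1, Nuf2 and Pmf1 did not.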

How the results depend on the processing

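Over all alternatives, the log2 fold changes of the 10 members kept direction and side of the threshold in 473 cases, lost the call in 42, gained one in 7 and changed sign in 28, and every member that changed sign was uncalled in the fit as reported. The replicate block left 6 members called in tumours, 6 in cultures, 7 in the difference and 9 between the controls, the same counts as without it. Leaving out 1 library gave 3 to 6 called members in tumours and 4 to 8 in the difference. Over all genes it gave 1087 to 3536 calls in tumours against 4835 as reported, and DESeq2 gave 2882. The cause was not tested. Among the signs that changed with 1 library left out, Spc25 in tumours ranged from -0.10 to 0.017 and Zwint from -0.047 to 0.0135. In cultures Ndc80 ranged from -0.013 to 0.042, Nuf2 from -0.047 to 0.084 and Nsl1 from -0.0175 to 0.24, and the difference for Ndc80 from -0.048 to 0.031. In cultures, upper-quartile scaling gave -0.0995 for Ndc80, -0.10 for Nuf2 and -0.0062 for Nsl1, and all 8 libraries in 1 fit gave -0.066 for Ndc80 and -0.0675 for Nuf2. Removing the trend gave -0.21, -0.23 and -0.17 for these 3 genes, and with the replicate block -0.21, -0.23 and -0.17. For the difference, Ndc80 came to 0.011 with upper-quartile scaling, 0.22 with the trend removed and 0.22 with the replicate block as well, and Spc24 to -0.071 and -0.075 in the latter 2. Between the controls, Spc25 came to 0.031 with library totals alone. Among all genes called, upper-quartile scaling moved the share called higher in cultures from 51.9% to 42% and the median of all genes from -0.013 to -0.125. Library totals moved the share higher in the difference from 53.7% to 39.7% (44.1% without the filter) with the median going from 0.066 to -0.095, and moved the median between the controls from 0.152 to 0.315. Scaling CPM by TMM moved 17 of the 40 member levels by more than 1 SD of the group's libraries. With 2 libraries a group, the precision of a single gene rests on the spread shared across genes.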
